A study of Mus musculus with 3 samples.

Results

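RNA sequencing of cultured lung mesenchymal stromal cells (LMSCs) was used here to set the metastatic stage (M-LMSC) against the adenoma stage (A-LMSC) of mammary tumour development. The study asked which transcripts separate LMSCs that promote lung metastasis from those of mice with early tumours. All cultures were made from FVB-strain MMTV-PyMT mice, in which the promoter of the mouse mammary tumour virus drives the polyoma middle T oncogene in mammary epithelium, so that the animals develop mammary tumours that spread to the lung. A-LMSC came from mice of 7 weeks with small primary tumours, and M-LMSC from mice of 13 weeks that already had lung metastases. The remaining library, PM-LMSC, came from mice of 11 weeks with large tumours and no metastasis, and its values are printed beside the others for reference. In all groups the lungs were digested with collagenase and hyaluronidase, the adherent cells were depleted of CD45+ leukocytes on magnetic beads, and the cells were grown in medium with serum to passage 3. No step that removes epithelial cells is named in those methods, which describe the cells as lacking lineage surface markers and more homogeneous after passaging. Whether epithelial cells were present was not tested here. The study counts its replicates as mice, by which this series holds 1 mouse per stage.

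Each stage was 1 library, so no difference had a replicate check, and values are described without a test or p-value. The libraries held 13479898 (A-LMSC), 12594155 (PM-LMSC) and 14338909 (M-LMSC) counts. Unless stated otherwise, 3 values in a row belong to these libraries in this order. CPM are counts scaled to the same library total with TMM factors, and the log2 ratio is that of CPM + 1 in M-LMSC over A-LMSC. Folds are ratios of CPM without the added 1, with exact 95% intervals that cover counting error only. Of 34742 genes, 7856 (22.6%) reached at least 20 CPM in A-LMSC or M-LMSC, and these genes form the comparison. They took 98.3% of the counts of A-LMSC and 95.8% of those of M-LMSC. The minimum was met in both libraries by 4399 genes, only in A-LMSC by 1068 and only in M-LMSC by 2389. A gene that met it in only 1 of the libraries had to differ between them, so the counts of genes below are descriptions and lend no support by themselves. Just inside the minimum lay Igf2bp3, Asb5 and Mrpl42, each with 345 counts (20.02 CPM) in M-LMSC, and just outside lay Nit2, Rnf139 and Chka, each with 344 counts (19.96 CPM).

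Mesenchymal stromal cells of the lung are spindle-shaped, matrix-producing cells that carry integrins, hyaluronan receptors and growth factor receptors on their surface. They secrete the fibrillar collagens and the enzymes that fold and cross-link them, and they answer tumour and immune signals with cytokines, proteases and complement. Epithelial cells, by contrast, are joined by E-cadherin and desmosomes, hold keratin filaments and rest on laminin, and these genes are usually silent in fibroblasts.

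The labelled cell type was checked against its markers first. Fibroblast genes were present in both libraries. Col1a1, a chain of type I collagen, stood at 16400, 7267 and 1815 CPM. Pdgfrb, a receptor of mural cells and fibroblasts, stood at 758, 531 and 292 CPM. Defining markers of endothelium and leukocytes were low: Pecam1 (CD31) had 2, 17 and 5 counts, Ptprc (CD45) 0, 3 and 9, and the T cell gene Cd3e 0 in every library. Genes of macrophages were nevertheless detected, such as Csf1r, the receptor of colony-stimulating factor 1, with 220, 338 and 159 counts and Cd68 with 114, 181 and 173. Summed over the lists, 15 endothelial genes came to 46.5, 75.2 and 24.5 CPM and 20 leukocyte genes to 140.2, 364 and 248 CPM. Among epithelial markers, keratins set M-LMSC apart from that picture. The 14 keratins that were listed summed to 53.02, 112 and 1044 CPM, and Krt15 was their member with the fewest counts in M-LMSC, at 3. The 17 listed genes of lung epithelium did not share this, with sums of 287.9, 96.63 and 144.6 CPM, highest in A-LMSC. With its keratins, the library labelled M-LMSC held both fibroblast and epithelial transcripts, and which cells the latter came from was not tested. In cultures sequenced in bulk, fewer cells of a type and less RNA per cell cannot be told apart.

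The ratios followed base composition. Of the 7856 genes, 2817 (35.9%) were higher in M-LMSC by 2-fold or more and 2993 (38.1%) were lower by as much, with a median log2 ratio of -0.41. Median-of-ratios and upper-quartile scaling moved this median by -0.25 and -0.31 on the log2 scale. Transcripts were annotated for 7847 of these genes. Among the 7724 that code for protein, split into 10 equal classes by GC content, the class with the lowest (31.9% to 42.9% G or C in the longest transcript) had a median log2 ratio of 2.77, and 87.3% of its genes were at least 2-fold higher. The class with the highest GC content (58.4% to 71.3%) had a median of -1.61, and 88.2% of its genes were at least 2-fold lower. The sign turned at 51.3% GC, between a class with a median of 0.15 below it and one with a median of -0.74 above it. Across these genes the Spearman rho of the log2 ratio with GC content was -0.75 and with transcript length 0.35, given as a description since the genes share both libraries. Averaged over counts, the GC content of the transcripts was 54.1%, 51.7% and 50.6%.

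Length added to this trend where GC content was low or intermediate. With the genes split into 5 GC classes and 3 length classes, the shortest transcripts of the lowest GC class (up to 2626 bases) had a median log2 ratio of 1.75 and its longest (from 4266 bases) a median of 3.23. In the middle GC class these medians were -0.75 and 1.09, of opposite sign. In the highest GC class they were -1.50 and -1.55, with no such gap. PM-LMSC against A-LMSC, which shares the A-LMSC library, had medians of 1.40 in the lowest and -1.50 in the highest of the 10 GC classes. M-LMSC against PM-LMSC had 1.10 and -0.09.

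**Figure D1:**
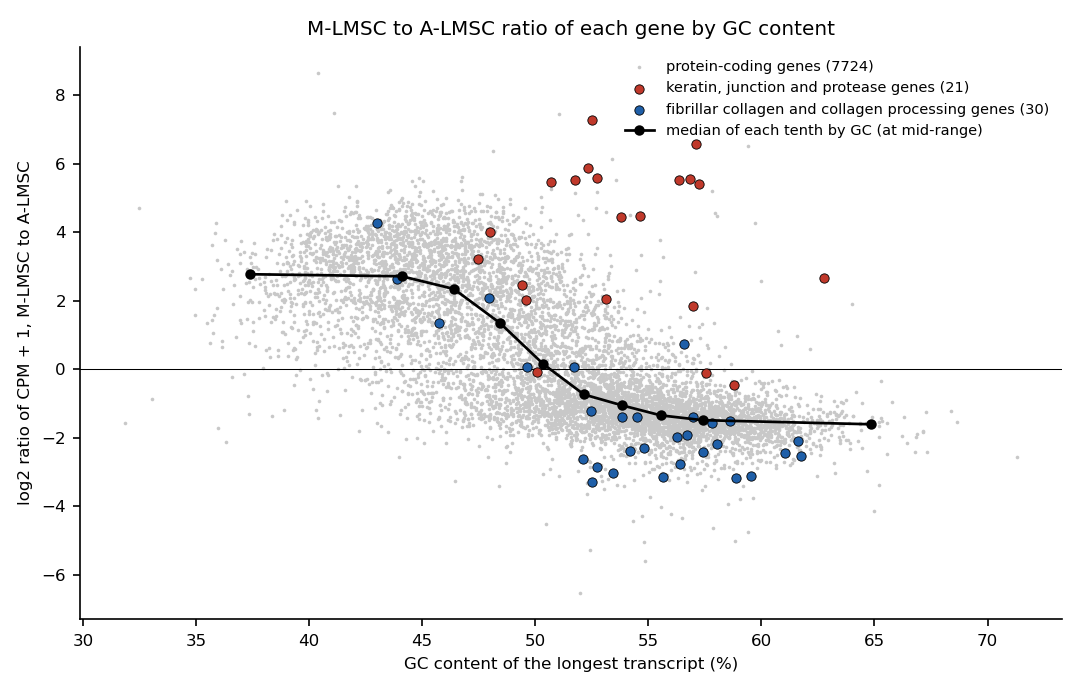
Log2 ratio of CPM + 1 in M-LMSC over A-LMSC (vertical axis) against the GC content of the longest annotated transcript in percent (horizontal axis), 1 grey point per protein-coding gene, with the median of each of 10 GC classes as a black line, epithelial genes in red and collagen genes and their processing enzymes in blue. The medians go from 2.77 in the lowest class to -1.61 in the highest, and most red points lie far above the line.

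A pair of enzymes of the same family differed in the direction of this trend. Rars and Vars charge transfer RNAs with arginine and valine in the cytosol. Rars stood at 4.99, 184 and 169 CPM. Its log2 ratio was 4.82, a 33.8-fold difference (95% interval 25.9 to 45.0). Vars stood at 411, 118 and 92.7 CPM. With a log2 ratio of -2.14 it was 4.44-fold lower in M-LMSC (4.19 to 4.70). So one enzyme was higher and the other lower in M-LMSC, and their transcripts hold 45.9% and 60.9% G or C. The 200 genes nearest to Rars in GC content had a median log2 ratio of 2.43 and those nearest to Vars one of -1.67, so the ratio of Rars was 2.40 above that of genes alike in composition and the ratio of Vars was within 2-fold of them. Krt8 and Col1a1, the leading epithelial and matrix genes of the comparison, differed in direction although the transcripts of both are rich in G and C (57.1% and 58.9%). A stretch of each synthetase is printed to show what such a contrast in composition looks like. Each is 90 bases of the longest coding sequence of the gene in GENCODE M21 (GRCm38/mm10), written 5′ to 3′ on the coding strand, with G and C in capitals. The stretch was chosen as the in-frame window nearest in GC content to the longest transcript, so it illustrates the contrast and is no evidence for it.
Rars (chr11:35808381-35834506, minus strand, coding bases 61 to 150, 41 of 90 bases G or C): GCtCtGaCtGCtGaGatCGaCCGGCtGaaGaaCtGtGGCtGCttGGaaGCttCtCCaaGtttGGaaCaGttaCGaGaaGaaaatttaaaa
Vars (chr17:35000987-35016322, plus strand, coding bases 409 to 498, 55 of 90): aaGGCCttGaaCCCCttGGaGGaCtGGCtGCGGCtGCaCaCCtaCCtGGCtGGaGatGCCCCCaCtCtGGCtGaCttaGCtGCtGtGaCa

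Each gene was therefore set beside genes of like GC. The GC-matched difference is the log2 ratio of a gene minus the median log2 ratio of the 200 protein-coding genes nearest to it in GC content, so that 0 means a gene differed between the libraries as its neighbours did. By this measure 1543 genes (19.7%) lay at least 2-fold above their neighbours and 1419 (18.1%) at least 2-fold below, while 4885 lay within 2-fold. Of the 2817 genes that were higher in M-LMSC, 1226 were also above genes of like GC and 218 were below them. Of the 2993 that were lower, 615 were also below genes of like GC and 0 were above. The spread of the values over genes (SD) was 2.07 for the log2 ratio and 1.40 for the GC-matched difference. A remainder of the length trend was kept, with a rho of 0.26 between this difference and length. Since untranslated ends can set the GC content of a long transcript, the difference was also taken by the GC content of the coding sequence, and 1107 genes lay above and 696 below their neighbours by both measures. Counts of listed genes below are to be read beside the shares of all genes: 35.9% higher, 38.1% lower, 19.7% above and 18.1% below.

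Keratins, the filament proteins of epithelia, lay farthest above genes of like GC. Of the 14 listed, 5 reached 20 CPM, 4 of these were higher in M-LMSC by 2-fold or more, and all 5 lay above genes of like GC, with a median GC-matched difference of 6.91 (6.84 by coding sequence). Krt8, the type II keratin of simple epithelia, had 23, 260 and 5020 counts, which was 2.08, 20.3 and 291 CPM. This made it 139.7-fold higher in M-LMSC (95% interval 93 to 220.6), with a GC-matched difference of 8.05. Its transcript shares 26.9% of its 50-base windows with a Krt8 pseudogene, so some of its reads may have been placed on that copy. Krt18, the partner of Krt8 in the filament, stood at 4.17, 15.7 and 238 CPM, which is 57.0-fold higher in M-LMSC (42.6 to 78.0). Krt7, of ductal epithelia, stood at 5.26, 17.4 and 367 CPM, or 69.9-fold higher (54.0 to 92.2). Krt14, of basal and myoepithelial cells, stood at 0.816, 8.28 and 75.3 CPM, or 92.3-fold higher (48.5 to 202). All of these keratins were lowest in A-LMSC, intermediate in PM-LMSC and highest in M-LMSC. Krt19 was the exception, at 29.5, 27.4 and 27.2 CPM in the 3 libraries.

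Junction genes of epithelia took the same side. Of 28 listed, 11 reached 20 CPM, 9 were at least 2-fold higher and 10 lay above genes of like GC, with a median GC-matched difference of 4.32. Cdh1 (E-cadherin), which joins epithelial cells at adherens junctions, had 5, 72 and 1095 counts, or 0.453, 5.62 and 63.5 CPM, and was 140.2-fold higher in M-LMSC (59.9 to 432.6). Epcam, an adhesion molecule of epithelial membranes, had 1, 42 and 879 counts. With a single count in A-LMSC its ratio of 562.6 has a counting interval of 100.7 to 22250. The desmosomal plaque proteins Dsp (desmoplakin) and Pkp1 (plakophilin) had no counts in A-LMSC. In M-LMSC they had 772 and 356 counts, or folds of at least 164.7 and 76.0. Cldn4, a claudin of tight junctions, stood at 1.63, 4.22 and 122.9 CPM and had a GC-matched difference of 7.02. Not every member took part: Jup (plakoglobin), which fibroblasts also use, stood at 95.8, 48.1 and 69.7 CPM, and F11r, a junctional immunoglobulin protein, at 118.0, 79.4 and 110.2 CPM.

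Laminin chains of epithelium and their receptor completed this group. Lama3 and Lamb3 encode chains of a laminin that anchors epithelium to its basement membrane, and integrin α6β4 (Itga6 and Itgb4) binds it. Lama3 had 0, 28 and 595 counts, at least 126.9-fold higher. Lamb3 had 33, 57 and 652 counts, or 12.7-fold higher (8.91 to 18.5). Both chains lay at least 4.59 above genes of like GC on the log2 scale. Itgb4 stood at 7.89, 7.73 and 52.4 CPM, or 6.64-fold higher (5.33 to 8.38), while Itga6 had 1, 364 and 576 counts and so was already high in PM-LMSC. Basement membrane genes as a list were mixed: of 23, 17 reached 20 CPM, 8 were at least 2-fold higher and 6 lower, and 8 lay above and 0 below genes of like GC. Among the lower ones, Col4a2 stood at 2476, 2049 and 420 CPM and Hspg2 (perlecan) at 3794, 1908 and 887 CPM. Their GC-matched differences were -0.92 and -0.42, which is within 2-fold of genes of like GC.

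Secreted and membrane-bound proteases of epithelia were among the genes with the largest values. All 5 of the 14 listed that reached 20 CPM were higher and above genes of like GC. Klk6, a kallikrein serine protease, had 0, 26 and 2668 counts, a fold of at least 569, and its GC-matched difference of 8.13 was the largest among protein-coding genes that have a gene name. Klk10 had 9, 10 and 675 counts, while Klk8 was already present in A-LMSC, at 55.6, 18.7 and 203 CPM. St14 (matriptase), a membrane protease that activates other proteases at epithelial surfaces, stood at 3.44, 2.81 and 40.4 CPM. In Klk6, Klk10 and St14 the main step lay between PM-LMSC and M-LMSC. Spint2, an inhibitor of such proteases, followed at 11.6, 7.89 and 68.6 CPM.

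Glandular secretory products joined them. Ltf (lactotransferrin), the iron-binding protein of milk and other secretions, had 0, 209 and 3022 counts and was higher in M-LMSC by at least 645-fold. Csn1s1, a casein of milk, had 0 counts in A-LMSC and reached 0.156 and 24.9 CPM in the later libraries. Lcn2 (lipocalin 2), an iron-trapping protein of inflamed epithelia, stood at 40.7, 35.9 and 307 CPM. Wfdc2, a secreted protein of ducts and airways, stood at 1.90, 7.03 and 67.2 CPM, and Pglyrp1, an antibacterial recognition protein, at 0.544, 4.22 and 70.4 CPM. In all 5 cases M-LMSC was the highest library. The list, to which Wfdc2 and Pglyrp1 do not belong, also holds genes that stromal cells express. Among these is Mfge8, a secreted bridge between dying cells and phagocytes, at 1028, 310 and 314 CPM.

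**Figure D2:**
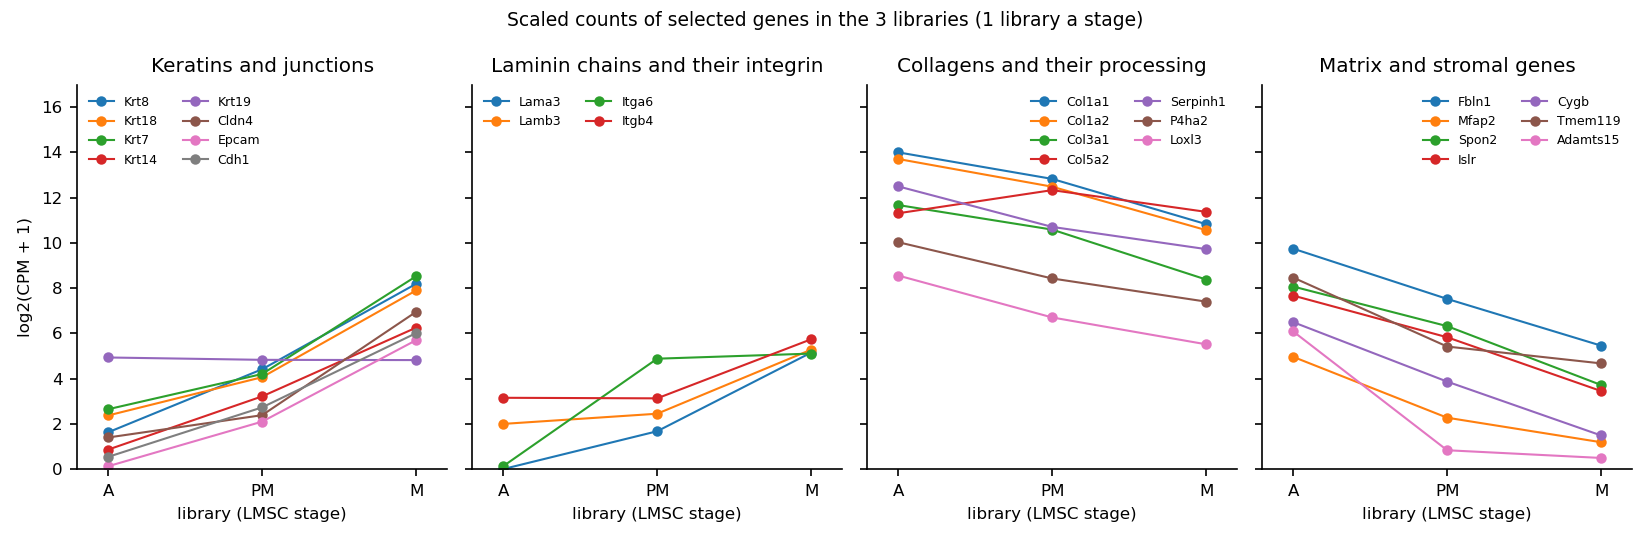
log2(CPM + 1) (vertical axis) of named genes in the 3 libraries (1 per stage, horizontal axis), 1 line per gene, in panels by role. The keratin, junction, laminin and integrin genes other than Krt19 are highest in M-LMSC, and the collagen and stromal genes other than Col5a2 are lowest there.

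Markers of other cell types were few. Among 17 genes of lung epithelium, 3 reached 20 CPM. Sftpc, the surfactant protein of alveolar type II cells, had 969, 0 and 29 counts and was 52.2-fold lower in M-LMSC than in A-LMSC (36.1 to 78.4). Aqp5, a water channel of alveolar and glandular epithelium, went the other way at 5.89, 9.14 and 24.5 CPM. Msln (mesothelin), found on mesothelium and some carcinomas, was the 1 mesothelial gene of 11 to reach the minimum, at 4.53, 10.5 and 74.5 CPM. The mesothelial Wt1 had 71, 294 and 73 counts and Upk3b 106, 57 and 56, so these markers did not follow Msln. None of the endothelial genes reached 20 CPM in A-LMSC or M-LMSC, and 3 of the leukocyte genes did. Of these 3, S100a8, a calcium-binding protein of neutrophils that epithelia also make, had the largest ratio, at 5.44, 9.53 and 52.4 CPM. Under the minimum, the macrophage gene Adgre1 had 0, 146 and 86 counts, at least 18.35-fold higher in M-LMSC than in A-LMSC. Itgam likewise had 0 counts in A-LMSC and 72 in M-LMSC, whereas Csf1r was 2.162-fold lower in M-LMSC (1.755 to 2.668).

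Collagen transcripts were less abundant in M-LMSC than in A-LMSC. Of 11 fibrillar collagen genes, 7 reached 20 CPM, 5 were at least 2-fold lower, 1 was higher, and 3 lay below genes of like GC by both measures, with a median GC-matched difference of -0.65. Among all genes 38.1% were lower and 18.1% lay below genes of like GC. Col1a1 was 9.04-fold lower in M-LMSC (8.93 to 9.15) and Col1a2, the other chain of type I collagen, stood at 13380, 5721 and 1511 CPM. Col3a1, of type III collagen, stood at 3262, 1536 and 331.7 CPM, or 9.83-fold lower (9.56 to 10.1). The GC-matched differences of these 3 genes were -1.62, -1.85 and -2.50, so they were lower in M-LMSC than GC-rich genes in general. Col5a2, of type V collagen, stood at 2533, 5151 and 2645 CPM, nearly equal in A-LMSC and M-LMSC. Col11a1, a minor fibrillar chain, was instead higher, at 14.32, 61.8 and 63.7 CPM. Summed over the fibrillar list, the level was 36530, 20440 and 6578 CPM. The summed keratins differed in the opposite direction, at 53.02 and 1044 CPM in A-LMSC and M-LMSC, and their part in the collagen values was not tested.

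Enzymes and chaperones of collagen assembly followed the collagens. Of 28 listed, 23 reached 20 CPM, 18 were at least 2-fold lower and 3 higher, and 8 lay below genes of like GC (6 by both measures). The shares of all genes that were lower and below were 38.1% and 18.1%. Serpinh1 (HSP47), the chaperone of procollagen, stood at 5784, 1669 and 844 CPM, with a log2 ratio of -2.77 and a GC-matched difference of -1.35. P4ha2, a prolyl hydroxylase subunit, stood at 1045, 343 and 168 CPM, and Plod1, a lysyl hydroxylase, at 698, 173 and 96.0 CPM, with GC-matched differences of -2.05 and -2.06. Loxl3, a cross-linking lysyl oxidase, stood at 376, 103 and 44.7 CPM. Opposed to them were Plod2, a lysyl hydroxylase of the collagen ends, at 11.5, 111 and 241 CPM, and Lox itself at 249, 596 and 1559 CPM. The transcript of Lox has a GC content of 43.9% and its coding sequence 59.5%, and the GC-matched difference was -0.16 by the former (0.46 with the deposited FPKM) and 4.06 by the latter, so its place among like genes depends on which sequence is used.

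Elastic fibre genes showed the same direction. Of 17 listed, 16 reached 20 CPM, 11 were at least 2-fold lower (38.1% of all genes were), 3 higher and 6 lay below genes of like GC (18.1% of all genes did). Fbln1 (fibulin 1), a glycoprotein of elastic fibres and basement membranes, stood at 857, 183 and 42.9 CPM, or 19.98-fold lower in M-LMSC (18.5 to 21.6), with a GC-matched difference of -3.07. Mfap2 and Mfap4, of microfibrils, stood at 30.2, 3.83 and 1.28 CPM and at 39.3, 12.4 and 4.06 CPM. Eln (elastin) had its lowest value in PM-LMSC, at 48.4, 1.48 and 6.498 CPM. Ltbp1, which holds latent TGF-β in the matrix, was the member farthest above genes of like GC (2.69), at 37.0, 341 and 139 CPM.

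Some further stromal genes were highest in A-LMSC, though the lists they belong to were mixed. Of 26 small leucine-rich proteoglycans and other matrix proteins, 18 reached 20 CPM, 4 were at least 2-fold higher and 7 lower, and 2 lay above and 7 below genes of like GC. Of 21 genes of lung fibroblast subtypes, 7 reached it, 4 were higher and 2 lower, and 1 lay above and 2 below. Of all genes, 35.9% were higher and 38.1% lower, and 19.7% lay above and 18.1% below. The share of the matrix proteins that was lower was thus near that of all genes. Spon2 (spondin 2) stood at 268, 78.8 and 12.1 CPM, or 22.1-fold lower in M-LMSC (19.2 to 25.5), and Islr, a leucine-rich protein of mesenchymal stroma, at 203, 55.8 and 9.92 CPM, or 20.4-fold lower (17.5 to 24.0). Cygb (cytoglobin), a globin of fibroblasts and stellate cells, had 985, 174 and 31 counts, or 49.6-fold lower (34.7 to 73.5). Tmem119, known from osteoblasts and microglia, stood at 353, 41.7 and 24.5 CPM. Ogn (osteoglycin), a small leucine-rich proteoglycan, had 260, 17 and 80 counts, a log2 ratio of -2.12. At a GC content of 36.3%, where most genes were higher in M-LMSC, its GC-matched difference was -4.54. All 5 genes were highest in A-LMSC. Thbs1 (thrombospondin 1), which activates latent TGF-β, did not share this pattern, at 793, 11120 and 4297 CPM, and Vcan (versican), a large hyaluronan-binding proteoglycan, stood at 10.5, 10.6 and 129 CPM.

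Matrix proteases took both directions. Of 30 MMP, ADAMTS and TIMP genes, 24 reached 20 CPM, 12 were at least 2-fold higher and 9 lower, beside 35.9% and 38.1% of all genes, while 7 lay above and 4 below genes of like GC, beside 19.7% and 18.1%. The direction of the list as a whole was not kept, since its median log2 ratio of 1.06 became -0.03 and -0.07 with median-of-ratios and upper-quartile scaling. Adamts15, a proteoglycan-cleaving enzyme, had 739, 10 and 7 counts, or 164.9-fold lower in M-LMSC (79.7 to 411.7). Mmp2, the gelatinase of fibroblasts, stood at 969, 521 and 170 CPM, with a GC-matched difference of -1.20. Adamts5, a main aggrecanase, stood at 12.1, 23.5 and 254.6 CPM, and Timp3, a matrix-bound inhibitor of metalloproteases, at 105, 3912 and 1974 CPM. Adamts5 and Timp3 lay 1.42 and 1.89 above genes of like GC by transcript and 5.21 and 5.26 by coding sequence. The collagenases Mmp8 and Mmp13 were higher in M-LMSC, at 2.27, 11.8 and 51.9 CPM and at 5.62, 45.3 and 105.2 CPM.

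Contractile genes differed less. Of 21 listed, 18 reached 20 CPM, 4 were at least 2-fold higher and 5 lower, and 5 lay above and 0 below genes of like GC, beside 19.7% and 18.1% of all genes. Acta2, the smooth muscle actin of myofibroblasts, stood at 4429, 5781 and 5319 CPM. Myh11, the myosin heavy chain of smooth muscle, had 101, 3583 and 4173 counts, or 26.4-fold higher in M-LMSC (21.7 to 32.5), and lay 5.48 above genes of like GC on the log2 scale. Des (desmin), an intermediate filament of muscle and mural cells, was lower only in M-LMSC among the 3 libraries, at 1021, 1181 and 192 CPM. The pericyte proteoglycan Cspg4 (NG2) did likewise, at 75.8, 199 and 6.15 CPM. Of 20 integrin chains 13 reached 20 CPM, 7 were at least 2-fold higher and 5 lower, beside 35.9% and 38.1% of all genes. Itga11, a collagen receptor of fibroblasts, stood at 69.8, 62.3 and 3.36 CPM and Itga3, a laminin receptor of epithelia, at 63.0, 68.5 and 161 CPM.

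The surface markers by which the study defines LMSCs were examined by their GC-matched difference. Itgb1 (CD29) stood at 42.6, 1846 and 2074 CPM, or 48.7-fold higher in M-LMSC (44.5 to 53.4). Its transcript is poor in G and C (44.9%), and genes like it had a median log2 ratio of 2.61, so its log2 ratio of 5.57 left a difference of 2.96. Nes (nestin) stood at 60.0, 966 and 362 CPM, with a difference of 3.87, and Pdgfra (CD140a) at 30.8, 230 and 137 CPM, with 0.66. Ly6a (Sca1) stood at 8.88, 17.3 and 54.8 CPM, with 1.05. For Cd44, at 55.1, 303 and 262 CPM, the log2 ratio of 2.23 lay below the median of genes of like GC, though 0.18 above it by coding sequence. Cd34 had a log2 ratio of 3.62 at 2.36, 34.4 and 40.1 CPM, with a difference of 0.83, which is within 2-fold of genes of like GC. Itgam (CD11b) had 0, 48 and 72 counts. The study lists CD34 and CD11b as absent by staining of protein, whereas these values are of RNA.

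Complement component C3, the gene that the study followed, was higher in M-LMSC both before and after GC matching. It had 1485, 4196 and 6103 counts, or 135, 328 and 354 CPM, and was 2.63-fold higher in M-LMSC (2.48 to 2.79). Its transcript has a GC content of 53.3%, where neighbours were mostly lower in M-LMSC, and its GC-matched difference was 2.35 (1.90 by coding sequence), at percentile 92.0 of its 200 neighbours. Masp1, a protease of the lectin pathway, lay on the same side at 12.7, 27.7 and 83.5 CPM, and Clu (clusterin), an inhibitor of the terminal complex, at 185, 152 and 307 CPM. Cfb (factor B), the partner of C3 in the alternative convertase, was lower at 235, 25.2 and 23.5 CPM, a GC-matched difference of -2.36. A readthrough gene model shares 81.4% of the 50-base windows of Cfb, so its reads cannot be assigned with certainty. Also lower was C4b, of the classical pathway, at 109, 31.2 and 13.5 CPM. In all, 9 of 32 complement genes reached 20 CPM, 3 lay above and 2 below genes of like GC, beside 19.7% and 18.1% of all genes.

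Inflammatory genes were divided between the libraries. Saa3 (serum amyloid A3), an acute-phase protein of stroma and macrophages, took 0.693% of the counts of A-LMSC and 0.0958% of those of M-LMSC, at 8464, 2416 and 797 CPM, with a GC-matched difference of -4.78 (-2.97 by coding sequence). Nos2, the inducible nitric oxide synthase, stood at 607, 34.1 and 56.3 CPM, with a difference of -2.30. Ptgs2 (COX-2), which makes prostaglandins, stood at 21.6, 117 and 611 CPM, or 28.3-fold higher in M-LMSC (24.9 to 32.4), and Il1a, an alarm cytokine of epithelia, had 0 counts in A-LMSC and stood at 7.97 and 39.6 CPM in the others. Both lay at least 2.04 above genes of like GC. Among chemokines, the neutrophil attractant Cxcl5 stood at 19.0, 29.0 and 163.8 CPM, with a difference of 0.10 (1.85 by coding sequence). Ccl20, an attractant of dendritic and Th17 cells made by epithelia, had 12, 37 and 1070 counts and a difference of 2.36. Cxcl12 and Cxcl14, made by fibroblasts, stood at 38.9, 45.5 and 10.0 CPM and at 74.0, 22.5 and 9.40 CPM and lay below genes of like GC by both measures.

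Antigen presentation genes were lower in M-LMSC. Of 25 listed, 15 reached 20 CPM, 12 were at least 2-fold lower and 1 higher, and 7 lay below and 0 above genes of like GC, with a median GC-matched difference of -0.99 (-0.85 by coding sequence). For all genes the shares lower and below were 38.1% and 18.1%. Psmb8, a subunit of the immunoproteasome, stood at 174, 50.9 and 17.6 CPM, or 9.89-fold lower (8.76 to 11.2), with a GC-matched difference of -2.44. Tap1, which carries peptides into the endoplasmic reticulum, stood at 146, 24.8 and 21.1 CPM, and the class I molecule H2-K1 at 538, 196 and 104 CPM. Class I genes are alike in sequence, and H2-K1 shares 8.1% of its windows with other genes. Interferon-stimulated genes, 28 of 36 of which reached the minimum, had 11 higher and 10 lower members. Of these genes 5 lay above and 7 below genes of like GC, shares near those of all genes (19.7% and 18.1%), and 1 and 11 by coding sequence. Irf7, their transcription factor, stood at 359, 92.5 and 49.7 CPM, whereas Ddx58 (RIG-I), a sensor of viral RNA, stood at 4.80, 47.4 and 102.9 CPM. They lay -1.54 and 1.65 from genes of like GC. Within this list the rho of log2 ratio and GC content was -0.88 (28 genes).

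Among signals, Wnt7b was the largest difference. This epithelial Wnt ligand had 0, 37 and 1561 counts, a fold of at least 333, with a GC-matched difference of 8.09. Dkk2, an antagonist of Wnt signalling, had a log2 ratio of 4.40 at 0.544, 5.16 and 31.5 CPM, with a GC-matched difference of 1.87. Wnt11 was lower at 21.1, 22.1 and 4.41 CPM, but within 2-fold of genes of like GC (-0.61). The EGF receptor ligand Ereg (epiregulin) stood at 6.71, 78.6 and 174 CPM and lay 1.92 above genes of like GC. Hbegf, another ligand of this receptor, was highest in PM-LMSC, at 16.6, 252 and 41.8 CPM. Prl2c3, a proliferin of the prolactin family, had 1, 68 and 7508 counts, but 78.6% of its windows are shared with Prl2c2, which had 293, 370 and 4098 counts, so only their sum can be read. Grem1, which binds BMP, stood at 118, 237 and 1188 CPM, with a difference of 0.68, within 2-fold of genes of like GC. Igfbp5, a carrier of insulin-like growth factors, stood at 36.0, 36.3 and 106.6 CPM, with 1.26. Of 9 Wnt genes that reached 20 CPM, 3 lay above and 1 below genes of like GC. For 5 EGF family genes these numbers were 2 and 1, and for 20 stromal growth factors 2 and 5. Of all genes, 19.7% lay above and 18.1% below.

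Cholesterol synthesis genes lay mainly below genes of like GC. Of 24 listed, 20 reached 20 CPM, 13 were at least 2-fold lower and 5 higher, but 13 lay below and 0 above genes of like GC (18.1% and 19.7% of all genes did), 10 of them by both measures, and the median difference was -1.11 (-1.24 by coding sequence). Srebf2, the transcription factor of the pathway, stood at 580, 231 and 74.9 CPM. Fdps, which makes farnesyl diphosphate, stood at 285, 101 and 36.8 CPM. The 5 higher members lay within 2-fold of genes of like GC. Cyp51 stood at 99.8, 210 and 34.1 CPM and so was highest in PM-LMSC. Summed over the list, the CPM were 2682, 1728 and 700.

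Cell cycle genes also lay more often below than above genes of like GC, but their sum differed little between A-LMSC and M-LMSC. Summed over the list, the CPM were 2467, 3201 and 2386. Of 32 listed, 23 reached 20 CPM, 12 were at least 2-fold lower and 6 higher, beside 38.1% and 35.9% of all genes. Below genes of like GC lay 11 and above them 1, beside 18.1% and 19.7% of all genes, with a median difference of -0.95. Tk1, a thymidine kinase of S phase, stood at 126, 29.8 and 15.3 CPM, or 8.24-fold lower in M-LMSC (7.22 to 9.43). Mcm5, of the replicative helicase, stood at 256, 98.0 and 40.3 CPM, and Plk1, a mitotic kinase, at 135, 73.4 and 19.8 CPM. Ccnd2, a cyclin of G1, was the member above genes of like GC, at 60.5, 808 and 835 CPM and a difference of 1.95. Members poor in G and C were nominally higher, such as Top2a at 5.08, 8.28 and 48.1 CPM, which lay 0.18 from its neighbours. Under the minimum, Ccnb1, Kif11, Cenpf, Cenpe and Mki67 were more than 2-fold higher in M-LMSC and Ccne2 was 2.82-fold lower. Of these, Kif11, Cenpf and Cenpe had only 3, 2 and 8 counts in A-LMSC. The other members under the minimum, Bub1, Bub1b and Ccnb2, were higher by less than 2-fold. Of 20 p53 targets and senescence genes, 19 reached 20 CPM, 7 were at least 2-fold higher and 5 lower. Above genes of like GC lay 4 and below them 2, so the share above was near that of all genes (19.7%). Mdm2, the ligase that degrades p53, stood at 10.5, 121 and 277 CPM and lay 2.32 above genes of like GC. Pmaip1 (Noxa), a killer protein of the BCL2 family, stood at 0.906, 9.30 and 56.3 CPM and lay 1.92 above. Cdkn1a (p21) stood at 1653, 700 and 895 CPM, a difference of 0.27.

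Glycolysis, which was lower in M-LMSC before matching, was nearer to its neighbours after it. Of 18 listed genes, 17 reached 20 CPM, 13 were at least 2-fold lower (38.1% of all genes were) and 0 higher. Yet 4 lay below genes of like GC (18.1% of all genes did) and the median difference was -0.37. Pkm (pyruvate kinase) took 0.946% of the counts of A-LMSC and 0.577% of those of M-LMSC, with a log2 ratio of -1.27 and a difference of 0.21. Slc2a1 (GLUT1), the glucose transporter, and Slc16a3, the lactate exporter, had differences of -1.22 and -1.18. Genes of the glutathione pathway and related defence took both directions. Of 24 listed, 20 reached 20 CPM, and 4 lay above and 6 below genes of like GC, beside 19.7% and 18.1% of all genes. Their median difference was -0.25. The member farthest above was Gclc, the catalytic subunit of the first enzyme of glutathione synthesis, with 25, 804 and 1357 counts and a difference of 2.81.

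**Figure D3:**
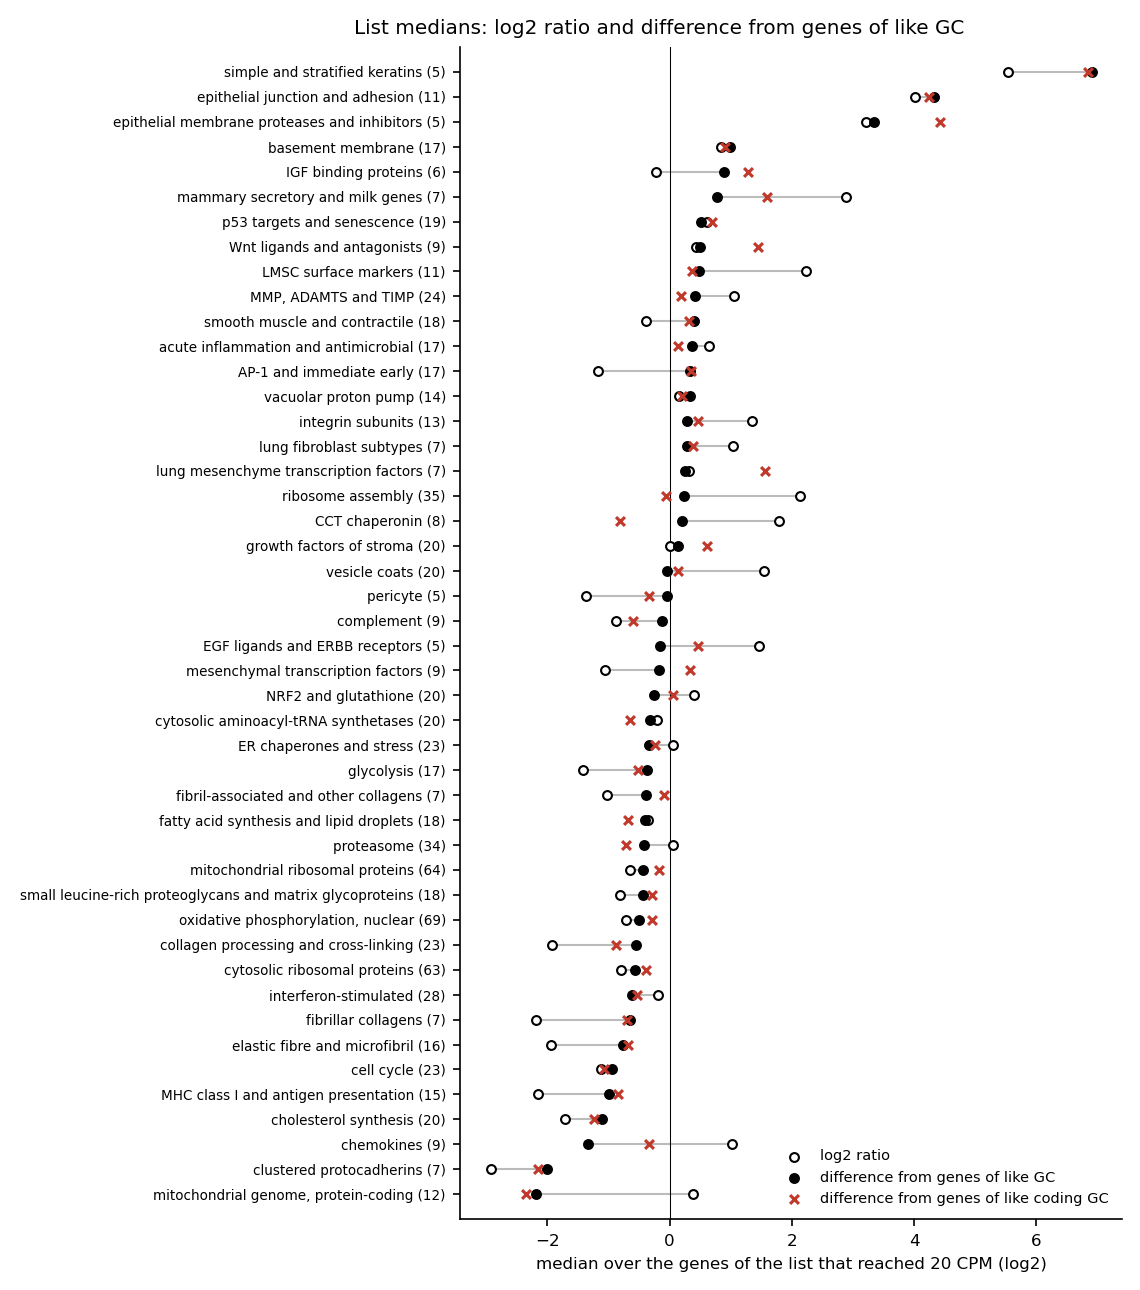
Median over the genes that reached 20 CPM (number in brackets) of each list with at least 5 of them, as log2 ratio of M-LMSC over A-LMSC (open circles) and as GC-matched difference by transcript (filled circles) or coding sequence (crosses), on the log2 scale (horizontal axis). Keratins, epithelial junctions and membrane proteases lie farthest to the right by both measures (medians 5.53, 4.01 and 3.22 before matching), and glycolysis moves from -1.42 to -0.37.

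Multiprotein machines showed how much of the ratio followed base composition. The 20 cytosolic aminoacyl-tRNA synthetases, the family of Rars and Vars printed above, all reached 20 CPM, with 8 at least 2-fold higher and 7 lower, and their log2 ratios had a rho of -0.85 with GC content (20 genes). After matching, 3 lay above and 4 below, and Rars was the member farthest above. Of the 8 subunits of the CCT chaperonin, which folds actin and tubulin as a ring, Cct8 (43.3% GC) stood at 29.7, 355 and 323 CPM and Cct4 (45.1%) at 22.5, 137 and 190 CPM. Both lay within 2-fold of genes of like GC. Of the 8 subunits, 3 lay below genes of like GC (2 by both measures) and 0 above, beside 18.1% and 19.7% of all genes. In the proteasome, all 34 listed subunits reached 20 CPM, from Psmd1 (46.9% GC, log2 ratio 3.90) to Psmd3 (55.4% GC, log2 ratio -1.54). For 34 subunits 14 were higher and 9 lower, while 3 lay above and 9 below genes of like GC, 0 and 5 by both measures.

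Ribosome assembly factors were mainly higher before matching and near genes of like GC after it. Of 38 listed, 35 reached 20 CPM, 22 were at least 2-fold higher and 7 lower, beside 35.9% and 38.1% of all genes. After matching 8 lay above and 2 below (6 and 5 by coding sequence), beside 19.7% and 18.1% of all genes, and the median difference was 0.24 (-0.06 by coding sequence). Utp20 and Heatr1, large scaffold proteins of the small-subunit processome, had log2 ratios of 5.61 and 4.70, at 0.544, 24.2 and 74.4 CPM and at 0.725, 55.0 and 43.7 CPM. They lay 3.24 and 2.77 above genes of like GC (2.74 and 1.59 by coding sequence). Nol6 and Bop1, assembly factors of 57.1% and 58.2% GC, had log2 ratios of -1.67 and -1.38. In the vacuolar proton pump, Atp6v1a, its catalytic subunit, stood at 6.98, 203 and 360 CPM and had a log2 ratio of 5.50, whereas the membrane subunit Atp6v0b stood at 499, 192 and 237 CPM and had one of -1.07. Their GC contents are 44.6% and 55.9%, and their GC-matched differences 2.74 and 0.31.

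**Figure D4:**
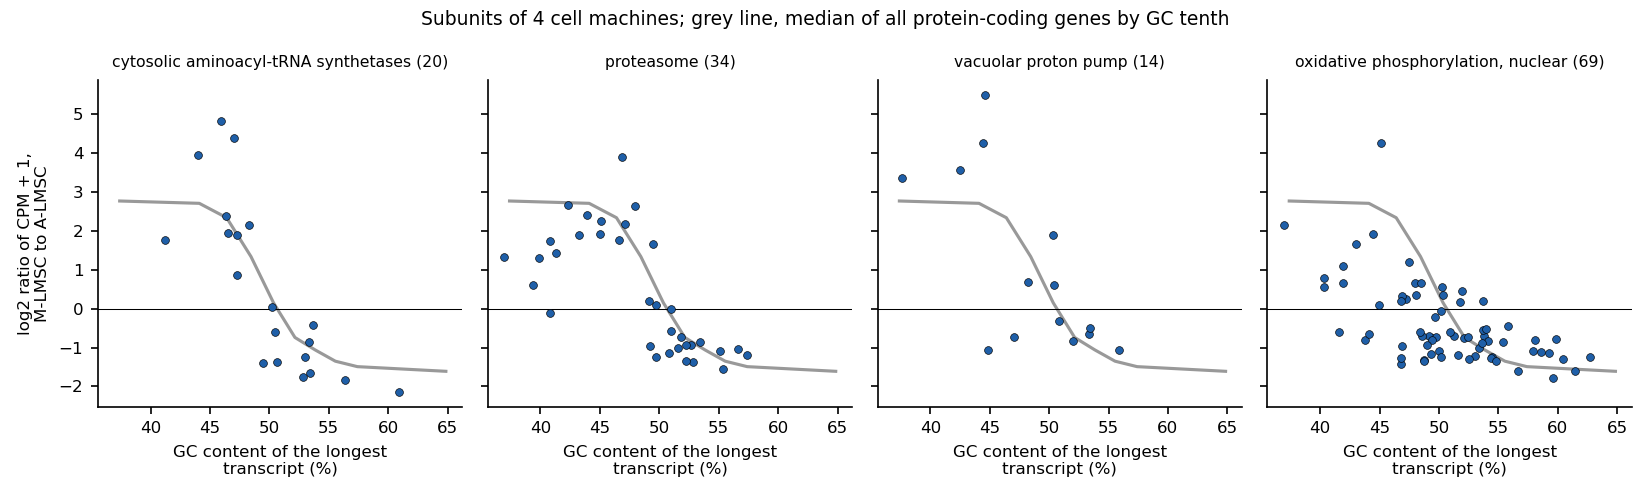
Log2 ratio of M-LMSC over A-LMSC (vertical axis) against GC content of the transcript in percent (horizontal axis) for the tRNA synthetases, the proteasome, the vacuolar proton pump and the nuclear genes of oxidative phosphorylation, 1 point per gene and 1 panel per machine, with the medians of all protein-coding genes in 10 GC classes as a grey line. In each panel genes poor in G and C tend to lie high and those rich in them low, with a rho between -0.85 for the synthetases and -0.57 for oxidative phosphorylation.

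Genes of the mitochondrial genome stood below their neighbours in composition. Mitochondrial transcripts took 1.02% of all counts in A-LMSC and 1.80% in M-LMSC. Of the 12 protein-coding genes that reached 20 CPM, 11 lay below genes of like GC by both measures, although 3 were at least 2-fold higher and 3 lower by log2 ratio. The median difference was -2.18, and -1.19 with neighbours matched by GC content and length. mt-Co1, of cytochrome c oxidase, stood at 2490, 1721 and 5543 CPM, and mt-Co3, of the same complex, at 3266, 663 and 1442 CPM. For mt-Atp6 (4886, 1 and 2324 counts) and mt-Nd4l (1, 542 and 3358 counts) 1 of the libraries had a single count. These values are uncertain, because mt-Co1 shares 51.1% of its 50-base windows, mt-Co3 99.9%, mt-Atp6 99.5% and mt-Nd4l 98.8% with other annotated genes, and mt-Atp6 and mt-Nd4l also overlap their neighbours. Which of these bears on the single counts was not tested.

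The genes with the largest GC-matched differences were listed in both directions. On the upper side, the 20 largest ran from 5.65 (Slc25a48, a mitochondrial carrier) to 8.13 (Klk6). Beside genes named above they included Tns4, a tensin of epithelial adhesions, Lad1 (ladinin), of anchoring filaments, Sfn, the 14-3-3σ protein of keratinocytes, and Spns2, a sphingosine-1-phosphate exporter. In A-LMSC, 13 of the 20 had fewer than 10 counts and 5 had 0. PM-LMSC lay between the other libraries in 19 of 20. All 20 lay at least 4.25 above genes of like coding GC as well, and their median GC content was 54.4%, in the range where genes were mostly lower in M-LMSC.

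On the lower side, the 20 largest ran from -4.25 to -6.03, and they were less uniform. They included the stromal genes Saa3, Ogn and Adamts15 described above and Rarres2 (chemerin), a secreted adipokine and chemoattractant, which stood at 43.7, 8.67 and 0.928 CPM. Lypd1, a membrane protein that binds nicotinic receptors, and Bambi, a decoy receptor that dampens TGF-β signalling, stood at 88.4, 25.7 and 8.35 CPM and at 70.5, 25.6 and 11.2 CPM. Sod2, the mitochondrial superoxide dismutase, stood at 465, 188 and 133 CPM. For 6 of the 20 (Prrc1, Haus8, Ppp2r3d, Sf3b5, Mrpl17 and Zfp821) the difference was under 1 by coding sequence, and the longest transcripts of these genes have a lower GC content than their coding parts. Mrpl17, a mitochondrial ribosomal protein, is an example: its longest transcript has 7300 bases and 43.0% GC, its coding sequence 528 bases and 57.4% GC, and its difference went from -4.26 to -0.24. The gamma-protocadherin genes Pcdhga3 and the second of 2 genes with the symbol Pcdhga8 share constant exons with the rest of their cluster (45.0% of windows for Pcdhga3), so their reads cannot be assigned with certainty.

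**Figure D5:**
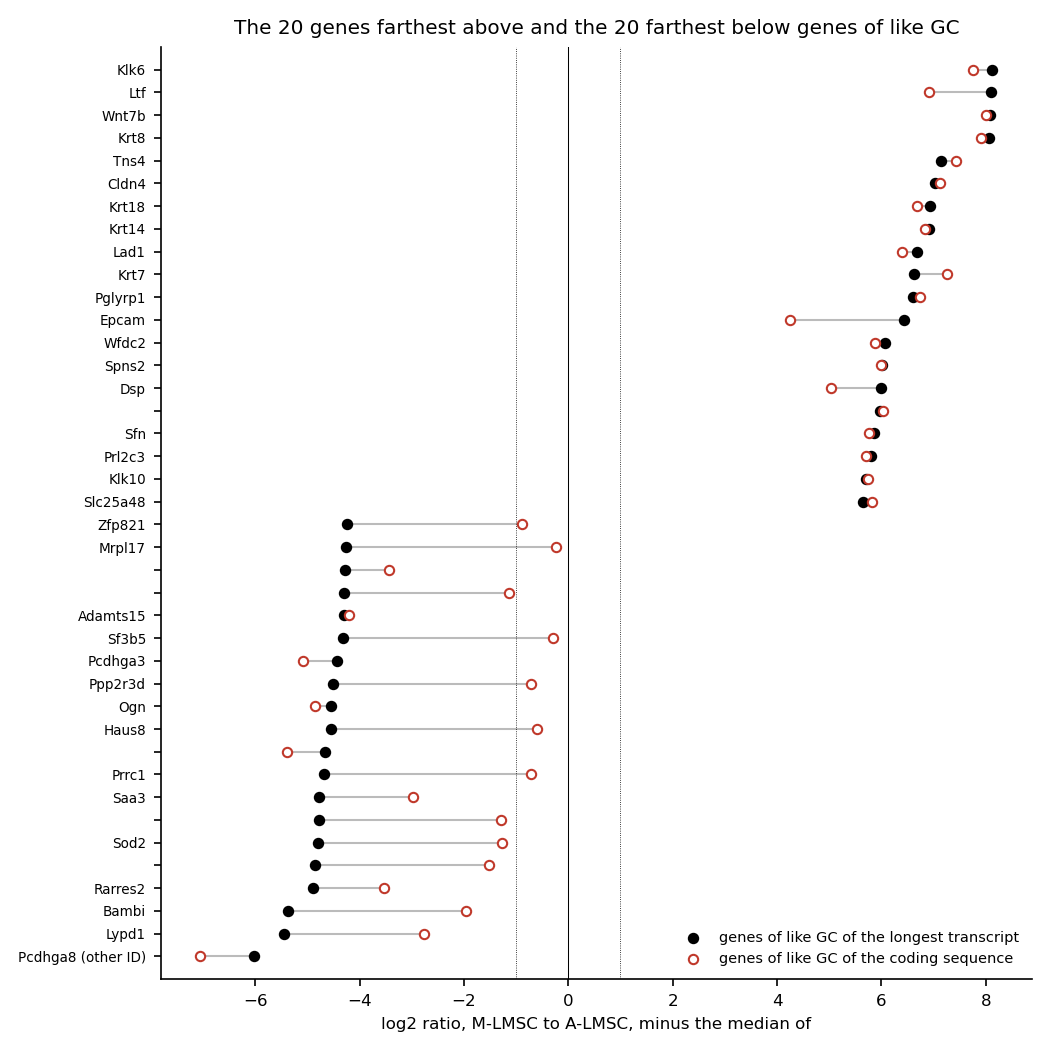
GC-matched difference (log2, horizontal axis) of the 20 protein-coding genes farthest above and the 20 farthest below genes of like GC, by transcript and by coding sequence, 1 gene per line, with names for the genes described in the text. The upper 20 stay at 4.25 or more by both measures, while 6 of the lower 20 come to within 1 of 0 by coding sequence.

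The genes with most counts were listed for each library. In A-LMSC, Eef2 (1.36% of the counts), Col1a1 (1.34%) and Col1a2 (1.10%) led, followed by Pkm, Saa3, Ldha, Lrp1, Actb, Rpsa and Serpinh1. In M-LMSC, the elongation factor Eef1a1 led with 0.964% (0.160% in A-LMSC), followed by mt-Co1 (0.666%) and Acta2 (0.639%, 0.362% in A-LMSC). Pkm, Thbs1, Eef2, Flna, Lgals1 and Fth1 were also among its first 10. Only Pkm and Eef2 were among the first 10 of both libraries. The chains of type I collagen had shares of 0.218% and 0.182% in M-LMSC. These shares are not matched by GC content. The GC-matched differences of Eef1a1, Eef2, Pkm and Acta2 were 0.21, -0.56, 0.21 and -0.09, within 2-fold of genes of like GC. Those of Col1a1, Col1a2 and Thbs1 were -1.62, -1.85 and 2.08. Eef1a1, Rpsa and Pkm share 59.2%, 43.9% and 34.4% of their 50-base windows with other genes, so their reads cannot be assigned with certainty.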

How the data were processed

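RNA of cultured LMSCs at 3 tumour stages was sequenced by the authors, 1 library per stage. TopHat2 2.0.9 and the build mm10 are named in the processing notes of the submitters. How reads were counted, on which annotation and whether by strand was not given in the sources used here. For every gene the authors deposited raw counts and FPKM, a value relative to gene length and sequencing depth. Lines with incomplete values were left out with the 3 genes they belong to (Sirt1, Tgfb1 and Bmp4), which are not analysed here. No column of per-sample values went unused.

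CPM were computed from the deposited counts with TMM factors over the 3 libraries (edgeR 4.0.16 in R 4.3.3), with a minimum of 20 CPM in either library and a pseudocount of 1 CPM for log2 ratios. Stages were taken from the labels. Folds used CPM without pseudocount, with exact 95% binomial intervals. A count of 0 was set to 3 counts per library, which lie at 0.272, 0.234 and 0.174 CPM in the libraries, ordered by the age of the mice, and this gave "at least" folds. The fitted log2 ratio of a gene at 0 depends on the pseudocount and is no bound. GC content and length were read from the longest transcript in GENCODE M21, found for 98.6% of genes, with 200 protein-coding neighbours. Shared sequence was measured in windows of 50 bases against all other transcripts. Python 3.11.15, numpy 2.4.6, pandas 2.3.3, scipy 1.17.1 and matplotlib 3.10.9 were used, and the GC matching and the intervals were tested on simulated data.

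Named genes were C3, the surface markers that the study states, the 10 genes with most counts in each library, the 20 protein-coding genes farthest above and the 20 farthest below genes of like GC (unnamed gene models passed over), up to 6 genes per direction of each described list with any needed to place it, and the genes at the minimum. Some of these genes are not reported here. In all, 55 gene lists were written. The genes, lists and rules were chosen with earlier results of these data known. Alternatives were pseudocounts of 0.1 and 5, TMM over the 2 libraries, upper-quartile scaling, size factors by median of ratios from DESeq2 1.42.0, FPKM as deposited with a minimum of 20, other minimums (5 or 100 CPM, none, or a mean of 20 CPM), 100 or 400 neighbours, neighbours by GC content and length, and GC content averaged over transcripts. GC content of the coding sequence was added after seeing the data. Since each stage had a single library, no test was made.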

Additional observations from a re-analysis of the deposited data

How the results depend on the processing

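With 1 library per stage, biological and technical differences between these cultures cannot be told apart, and intervals cover counting error only. No paired analysis was possible because each stage has 1 library. Depth limits genes with few counts in A-LMSC, whose folds are bounds or have wide intervals.

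Of the 162 genes of the comparison that the report names, 0 changed the sign of a log2 ratio or of a GC-matched difference that was at least 2-fold under any alternative that gave a value. Of smaller values, 2 log2 ratios and 19 GC-matched differences changed sign under at least 1 alternative. Genes under 20 CPM in both libraries were not part of this. Counts of genes followed the minimum. With the deposited FPKM and a minimum of 20, 3139 genes were left, of which 917 were higher, 712 lower, 504 above and 416 below genes of like GC. At 100 CPM the counts were 641, 1568, 514 and 396, at 5 CPM 4514 were higher, and with no minimum 5418 were higher, 3933 above and 3640 below. The median log2 ratio was -0.665 with median-of-ratios scaling, -0.722 with upper-quartile scaling, -1.09 at 100 CPM and -0.664 with a mean of 20 CPM, and turned to 0.18 at 5 CPM and 0.16 with no minimum. Fewer or more weakly expressed genes enter under these minimums by construction. With coding sequence GC, 1671 genes lay above and 1196 below.

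Median GC-matched differences of lists kept their sign wherever they were at least 2-fold. They were smaller in 44 of 52 lists, and 20 of these 44 changed sign. So did 14 of the 26 median log2 ratios under 2-fold. Of the median log2 ratios of at least 2-fold, those of 9 lists reversed. They became 1.10 for mesenchymal transcription factors at 5 CPM and with no minimum, 0.30 and 0.23 for fibril-associated collagens with FPKM and no minimum, -0.03, -0.07, -0.06 and -0.55 for metalloproteases with median-of-ratios, upper-quartile, 100 CPM and mean settings, -1.48, -0.34 and -0.34 for lung fibroblast subtypes with FPKM, 100 CPM and mean settings, -0.15 for chemokines with upper-quartile scaling, -0.25 for integrins with the mean setting, 0.20 for cell cycle and 0.16 for protocadherins with no minimum, and -1.15 for ribosome assembly at 100 CPM. The cause was not tested.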

Other observations

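Several epithelial genes stayed under 20 CPM in both libraries and so outside the comparison. Ordered by age of the mice, the counts of some of them were lowest in the first and highest in the last library, as those of Krt8, Krt18, Krt7 and Krt14 were. Ehf, an ETS transcription factor of epithelia, had 0, 6 and 221 counts, at least 47.1-fold higher in M-LMSC. Grhl2, a grainyhead factor that maintains epithelial identity, had 0, 3 and 134 counts, at least 28.6-fold higher. Esrp1, an epithelial splicing regulator, had 1, 5 and 223 counts, a ratio of 142.7 with a counting interval of 25.4 to 5663. Of 23 such transcription and splicing factors, 0 reached 20 CPM, and their summed values were 25.1, 81.3 and 105 CPM. Esrp2 did not share the pattern, at 170, 122 and 225 counts. Nor did Klf5 (1, 149 and 140 counts), Elf3 (8, 5 and 39), Cdh3 (147, 217 and 84) and Krt23 (13, 101 and 4). Other epithelial genes shared it: Lsr of tricellular junctions had 9, 24 and 292 counts, and Krt17 of basal epithelium 0, 44 and 254.

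Milk genes were unevenly represented. Csn3 (κ-casein) had 0, 0 and 253 counts, at least 54.0-fold higher in M-LMSC than in A-LMSC, whereas Csn2 (β-casein), Wap and Lalba had 0 counts in every library. Wnt7a, the closest relative of Wnt7b, had 0, 14 and 262 counts, at least 55.9-fold higher. Erbb3, a receptor of neuregulin, had 1, 3 and 144 counts. S100a9, the partner of S100a8, had 0, 13 and 341 counts, and Klk7, another kallikrein, 0, 7 and 255. The surfactant gene Sftpb, at 202, 0 and 13 counts, followed Sftpc and was 24.3-fold lower in M-LMSC than in A-LMSC (13.9 to 46.4).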
